A study of Mus musculus with 12 samples.

Results

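The genes described here are the carriers and pumps that move organic solutes, lipids and metal complexes across membranes: the organic anion transporting polypeptides (Slco genes), the organic cation, carnitine and anion carriers (Slc22a genes) and the membrane-bound ATP-binding cassette transporters of subfamilies A, B, C, D and G (Abca, Abcb, Abcc, Abcd and Abcg genes). They were picked by a rule on their symbols, with Abcb11 and Abca3 left out. The rule used no measured value, but it was written with earlier results of these data known. This gave 59 of the 12393 genes on the array: 11 Slco genes, 18 Slc22a genes and 30 Abc genes, read by 93 of 22626 probe sets. The study asked how lung and liver differ between tumor-bearing and control mice before metastases, as its title calls the time point pre-metastatic. All groups were female nude NCR mice, an athymic and therefore T-cell-deficient strain. Tumor-bearing mice carried an orthotopic 4T1 graft (4T1 is a mammary carcinoma line of the mouse), and control mice had been injected with PBS. Liver and lung were taken on day 7 from 3 mice of each kind, which gave 4 groups of 3 arrays, 12 in all. The labels do not say which liver and which lung came from the same mouse, and the comparisons between organs treat their arrays as independent. Ages were not used here.

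Slco and Slc22a proteins are carriers that take bile acids, conjugated steroids, prostaglandins, carnitine and many drugs into cells. ABC transporters use ATP to drive export, or transport into organelles, of conjugates, phospholipids, sterols, fatty acyl chains and porphyrins. In the liver the uptake carriers of the sinusoidal membrane and the pumps of the canalicular membrane together set the traffic of bile constituents and xenobiotics, and most are made by hepatocytes. In the lung, lipid transporters serve surfactant and macrophage sterol handling, and the prostaglandin transporter Slco2a1 takes up prostaglandins from the blood.

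Each value is a log2 level per probe set, and a gene was represented by its probe set with the highest mean. The labelled tissues matched their markers. The 12 hepatocyte genes on the array averaged 15.47 to 15.59 on the liver arrays, and type 2 pneumocyte genes averaged 14.43 to 14.85 on the lung arrays. Hepatocyte transcripts also appeared on 2 lung arrays, where the same 12 genes averaged 10.29 (control 3) and 9.10 (tumor 1) against 3.35 to 5.01 on the other 4. Cardiac muscle genes averaged 3.96 to 10.12 on the lung arrays, in both groups. Neutrophil genes averaged 5.55 to 6.65 in control lung and 9.87 to 10.71 in tumor-bearing lung, and 8 of 8 were higher. Within groups the arrays correlated at 0.989 to 0.996 over all probe sets. With 3 arrays a group, the number of arrays limits the precision, and p-values measure the spread between these mice. In bulk tissue, fewer cells of a type and less RNA per cell cannot be told apart.

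The transporters differed between the organs in which of them could be measured. A gene was counted as measured in a tissue if it read above 4 (log2) on at least 3 of that tissue's 6 arrays. By this count 22 of the 59 were measured in both tissues, 12 in liver only, 3 in lung only and 22 in neither. Liver-only genes were 20.3% of the transporters and 4.18% of all genes on the array. The 12 were Slco1a1, Slco1a4, Slco1b2, Slc22a7, Slc22a26, Slc22a27, Slc22a29, Slc22a30, Abcc2, Abcc6, Abcg5 and Abcg8. The 3 lung-only genes were Slco3a1, Abcb1b and Abca7, 5.08% of the transporters against 5.75% of all genes. Of the 22 genes measured in neither tissue, 20 stayed at or under 4 on all 12 arrays, and Abcc8 and Slc22a17 were the other two. Several of these are known from other organs: Slc22a2, Slc22a6, Slc22a8 and Slc22a12 from kidney, Abca4 from the retina, Slco1c1 from the blood-brain barrier, and Slco6b1 and Slco6c1 from testis. All Slc22a anion carriers measured were measured in liver, and none of that list of 11 was measured in lung.

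In control mice, 36 transporters passed the filter in the comparison of liver with lung, and 32 differed (limma, adjusted p under 0.05), 26 higher in liver and 6 higher in lung. Of all 8270 genes tested, 81.1% differed, 35.5% being higher in liver and 45.6% higher in lung. Of the 36, 11 were above 4 on all control liver arrays and on no control lung array, and 1, Slco3a1, the reverse, so the filter let them in only through the organ where they were high. Among the 20 above 4 on all 6 control arrays, 13 were higher in liver and 3 in lung. Of all 6921 such genes 78.2% differed, 2396 being higher in liver and 3014 higher in lung. The median difference, liver minus lung, was 1.07 for the 20 against -0.14 for the 6921. Centring each array on its median moved the median of all genes tested from -0.18 to 0.25 and the share of called genes that were higher in liver from 43.8% to 58.2%, while the signs of the transporters were kept: 29 of 36 were higher in liver under either scaling. The arrays of the organs did not overlap for 35 of the 36, against 84.8% of all genes. For the 11 and for Slco3a1 this followed from the way they were counted, so the excess over 84.8% is not read as a result. The 4 that did not pass were Abcb1a, Abca8a, Abcb9 and Slc22a5. Leaving out single arrays left between 21 and 31 transporters called, the lowest without liver control 1.

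**Figure D1:**
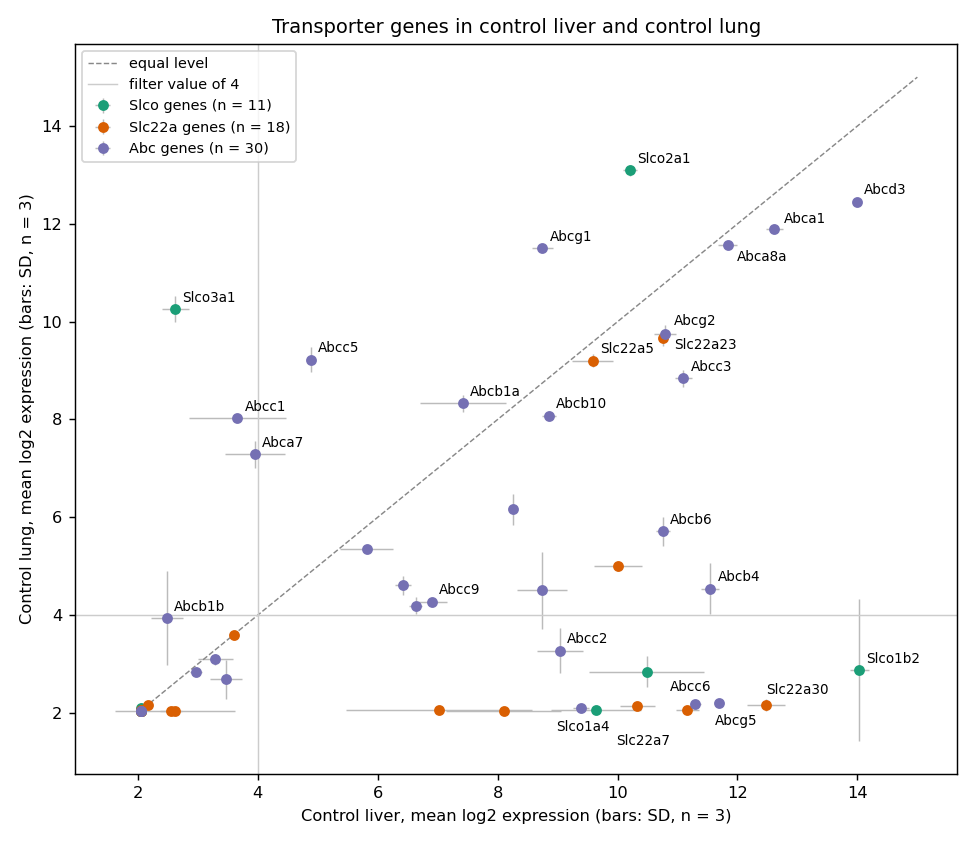
Mean log2 expression in control liver (horizontal) and control lung (vertical) for the 59 transporter genes, coloured by family, with SD bars over 3 arrays. Grey lines mark the filter value of 4 and the dashed line marks equal level. A row of liver genes, such as Abcg5, Slc22a30 and Slc22a7, lies along the floor of the lung axis, while Slco3a1, Abcc5, Abcc1 and Abca7 lie above the dashed line.

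Among the Slco carriers, Slco1b2, the hepatic uptake carrier of bile acids and bilirubin conjugates, read 14.21, 13.96 and 13.93 in control liver. In control lung it read 2.04, 2.04 and 4.55. Its level in lung followed the hepatocyte transcripts: 4.55 belonged to control 3 and 2.79 to tumor 1, the 2 arrays with the highest hepatocyte means, and the other 4 lung arrays read 2.04. A second Slco1b2 probe set, 1452494_s_at, had the same order, with 5.06 on control 3 and 3.22 on tumor 1. Slco1a4, an uptake carrier of bile acids and cardiac glycosides, was at least 50-fold higher in control liver than in control lung, and Slco1a1, a carrier of conjugated steroids, at least 89.6-fold. In these and the following bounds the lower organ, at or under 4 on every control array, was set to 4. Slco2a1, the prostaglandin transporter, went the other way, at 10.33, 10.19 and 10.09 in control liver and 12.97, 13.20 and 13.12 in control lung, 7.42-fold higher in lung (adjusted p = 1.77e-06). Slco3a1, also a carrier of prostaglandins and thyroid hormone, read 2.45 to 2.88 in control liver and 10.03 to 10.56 in control lung, at least 76.9-fold higher in lung.

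**Figure D2:**
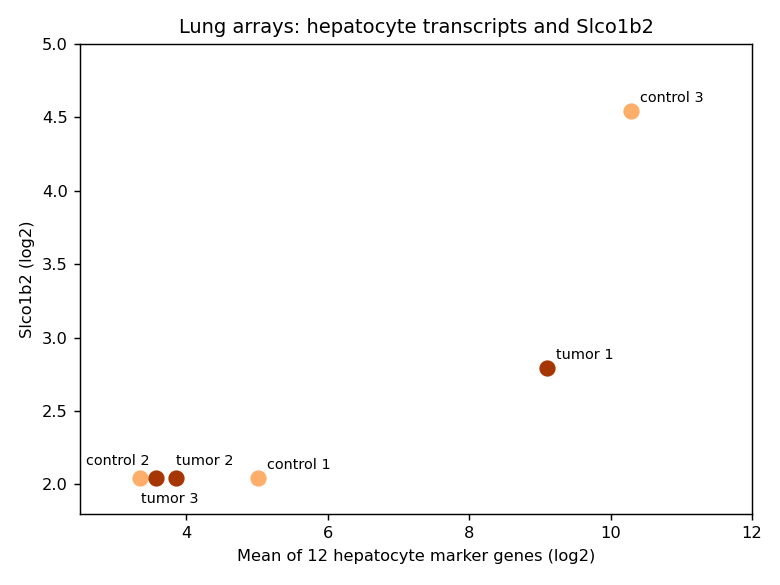
Slco1b2 (vertical, log2) against the mean of 12 hepatocyte marker genes (horizontal, log2) on the 6 lung arrays, labelled by group and replicate. Control 3 (4.55) and tumor 1 (2.79) stand apart from the other 4 arrays, which read 2.04 for Slco1b2.

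The 5 Slc22a anion carriers measured were above 4 in liver and on no lung array, so that they entered the comparison through liver alone. Their levels were higher in liver, Slc22a7 (OAT2) by at least 80.6-fold, Slc22a30 by at least 355-fold, Slc22a26 by at least 144-fold, Slc22a29 by at least 17.2-fold and Slc22a27 by at least 8.11-fold. Slc22a26, Slc22a27, Slc22a29 and Slc22a30 belong to a rodent cluster of similar genes, and the probe sets used for Slc22a27 and Slc22a29 are of a type that can bind several similar transcripts, so these levels may be shared between paralogs. In the RefSeq gene order Slc22a19, Slc22a26 and Slc22a27 are neighbours, as are Slc22a29, Slc22a30, Slc22a8 and Slc22a6. Slc22a29 and Slc22a30 were measured in liver, whereas Slc22a8 and Slc22a6 next to them were at or under 4 on all 12 arrays. The kinship of Slc22a29 and Slc22a30 shows in the 250 bases before their starts (RefSeq, GRCm38.p6, minus strand), which were identical at 175 of 250 bases after alignment. Over the 45 pairs of liver-only genes, with 1 window a gene, the median was 131 and the next highest pair had 145. They are shown with the interval before Slco1b2 (plus strand), since Slc22a29 and Slco1b2 are the 2 liver-only genes with a GTTAAT match. Of the motifs counted next, the Slc22a30 window holds only TTGCNNAA, which is not marked in any window. Capitals mark matches on either strand to the HNF1 motif of hepatocyte promoters or to GTTAAT, the letters it starts with, and to TTCNNNGAA, the letters of STAT factors.
Slc22a29, chr19:8218901-8219150: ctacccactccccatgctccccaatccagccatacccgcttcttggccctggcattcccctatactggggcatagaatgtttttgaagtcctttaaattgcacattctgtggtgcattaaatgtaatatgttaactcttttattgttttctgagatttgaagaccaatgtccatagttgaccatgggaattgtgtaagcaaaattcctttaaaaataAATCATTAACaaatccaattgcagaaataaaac
Slc22a30, chr19:8405106-8405355: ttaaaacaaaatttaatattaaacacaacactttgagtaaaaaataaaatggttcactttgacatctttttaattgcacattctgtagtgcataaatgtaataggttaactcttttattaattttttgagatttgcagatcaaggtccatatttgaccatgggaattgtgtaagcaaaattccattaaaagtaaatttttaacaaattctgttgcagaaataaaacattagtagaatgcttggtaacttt
Slco1b2, chr6:141629268-141629517: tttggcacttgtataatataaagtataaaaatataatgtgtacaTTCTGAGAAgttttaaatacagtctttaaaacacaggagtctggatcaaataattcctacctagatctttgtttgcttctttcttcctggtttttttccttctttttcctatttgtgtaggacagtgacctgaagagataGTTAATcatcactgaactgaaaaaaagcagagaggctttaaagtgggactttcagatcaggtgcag
Of the 10 liver-only genes with a promoter entry, 1 held the whole HNF1 motif in such a window, Slc22a29, against 0.44% of 27025 genes with an entry. The shorter GTTAAT, which lies within the longer motif, was found for 2 of the 10 (Slc22a29 and Slco1b2), for 0 of 16 genes measured in both tissues, for 2 of 18 measured in neither (Slc22a6 and Slc22a8), and for 7.49% of all genes. TTGCNNAA, the letters of C/EBP factors, was found for 2 of the 10 (Slc22a29 and Slc22a30), 1 of the 16, 2 of the 18 and 10.8% of all genes. TTCNNNGAA was found for 2 of the 10 (Slc22a26 and Slco1b2), 1 of the 16, 2 of the 18 and 8.13% of all genes. The HNF4 letters CAAAGTCCA were found for 0 of the 10 and 0.451% of all genes. A match is a description of letters only, and these motifs were picked after the expression values were known.

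Slc22a5 (OCTN2), the plasma membrane carnitine transporter, read 9.32, 9.98 and 9.47 in control liver and 9.05, 9.27 and 9.30 in control lung. The difference of 0.38 did not pass (limma, adjusted p = 0.103), though every control liver lay above every control lung. Its other probe set, 1421848_at, read 5.98, 6.88 and 6.11 in control liver and 5.14, 5.93 and 5.14 in control lung. Slc22a18 was 31.9-fold and Slc22a23 2.14-fold higher in control liver. The roles of the latter pair are less well known.

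The sterol pumps Abcg5 and Abcg8, which form an obligate heterodimer that exports cholesterol and plant sterols into bile, were both liver-only. Abcg5 read 11.77, 11.67 and 11.63 in control liver and 2.19 to 2.23 in control lung, at least 207-fold apart. Abcg8 read 9.32, 9.31 and 9.54 against 2.11 on each control lung array, at least 41.9-fold apart. RefSeq lists more than 1 start for Abcg8. From the nearer of them and the start of Abcg5 the pair is transcribed outwards, leaving a shared interval of 109 bases, which is printed because these starts lie at its edges (GRCm38.p6, written on the plus strand, on which Abcg8 is transcribed).
Abcg5 to Abcg8 interval, chr17:84683012-84683120: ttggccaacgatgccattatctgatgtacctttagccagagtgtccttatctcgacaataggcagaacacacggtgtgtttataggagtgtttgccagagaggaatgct
Abcg1, which exports cholesterol from macrophages and pneumocytes, was 6.75-fold higher in control lung (adjusted p = 2.56e-06), and Abcg2 (BCRP), a xenobiotic and urate exporter, was 2.06-fold higher in control liver (adjusted p = 0.0006).

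The bile pumps and conjugate exporters also divided by organ. Abcb4, which moves phosphatidylcholine into bile, read 11.51, 11.71 and 11.41 in control liver and 4.26, 4.23 and 5.14 in control lung, 128-fold apart (adjusted p = 2.35e-06). Abcc2 (MRP2), the canalicular exporter of bilirubin conjugates, was at least 32.8-fold higher in control liver, and Abcc6 at least 157-fold. Abcc3 (MRP3), the basolateral conjugate exporter, was 4.77-fold higher in liver. Abcc1 (MRP1), the leukotriene C4 exporter, was 20.7-fold higher in lung (adjusted p = 0.000102) and Abcc5 (MRP5), an exporter of cyclic nucleotides, 20.3-fold (adjusted p = 1.21e-06). Abca7, a phospholipid transporter of phagocytes, was 10.1-fold higher in lung (adjusted p = 7.75e-05). In control liver Abcc1 read 4.13, 2.73 and 4.11 and Abca7 read 4.02, 3.42 and 4.42. These levels lie around the filter value of 4, so the ratios of Abcc1 and Abca7 are rough. Abca1, which loads cholesterol onto apolipoprotein A-I, was 1.64-fold higher in liver, and its relative Abca8b 5.42-fold. In the organelle group the mitochondrial porphyrin transporter Abcb6 was 32.8-fold higher in liver (adjusted p = 1.35e-06), and all 3 Abcd genes were higher there, the peroxisomal Abcd3 (PMP70) by 2.9-fold.

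In the livers of tumor-bearing mice the anion carrier Slc22a7 rose 2.32-fold, and it was the only transporter of 34 tested that passed the adjusted threshold. Among all 7712 genes tested in liver, 1.87% passed, 0.635% higher and 1.23% lower. By direction 34.0% of the genes called were higher, a share that became 52.9% after quantile normalization of the deposited values. At an unadjusted p under 0.05 there were 8 transporters, against 25.9% of all genes. The 34 changes ran from -1.23 to 1.21 (log2), 17 higher and 17 lower, with a median of -0.00 against -0.07 over all genes. The tumor and control arrays did not overlap for 10 of the 34 (4 higher, 6 lower), where the share over all genes was 33.1% (10.4% higher, 22.7% lower). A change of at least 0.5 in size was seen in 6 of them, and in 16.9% of all genes.

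**Figure D3:**
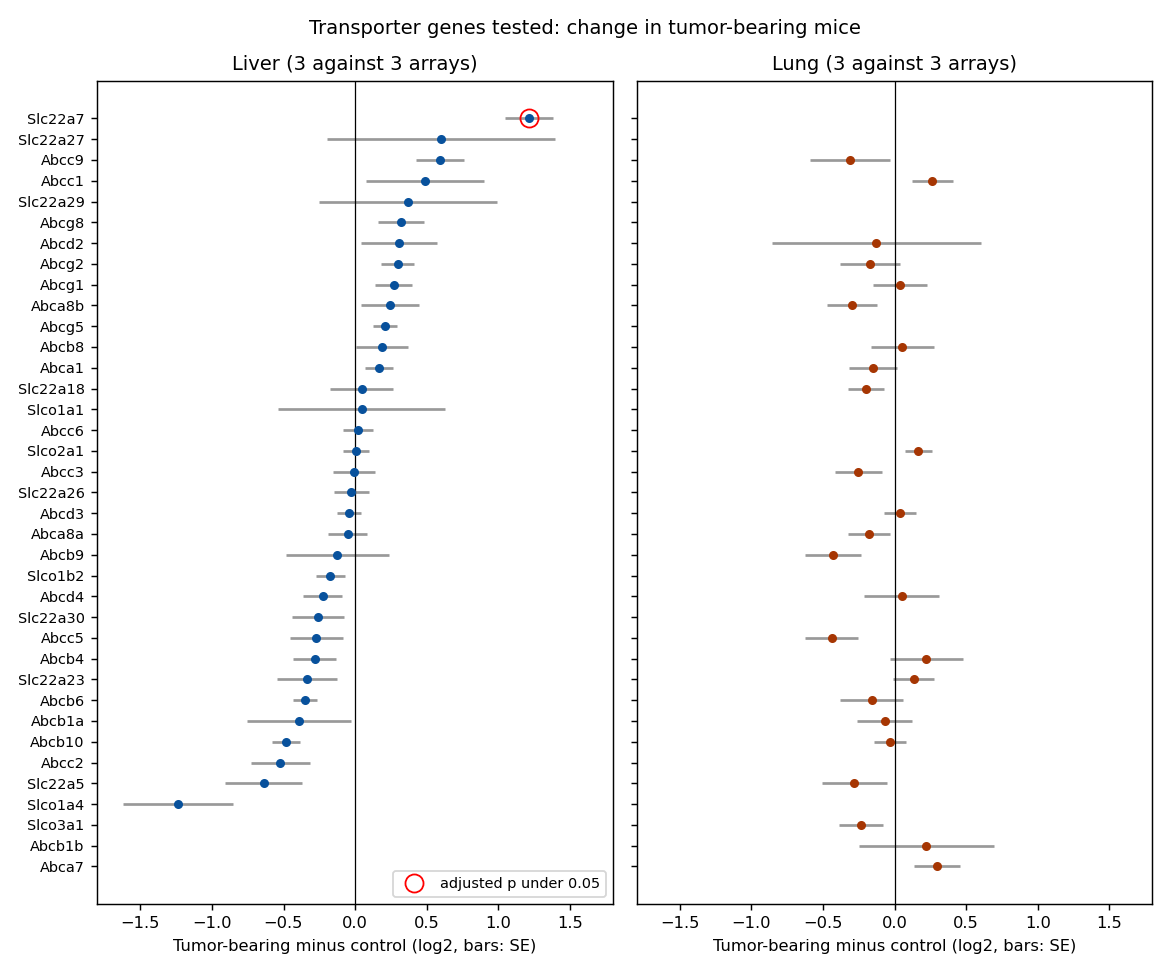
Tumor-bearing minus control (log2, bars SE) for the transporters tested in liver (left) and lung (right), 3 against 3 arrays each, in order of the liver change. The ringed point is Slc22a7 in liver at 1.21, the only change with an adjusted p under 0.05. No lung point lies outside -0.44 to 0.30.

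Slc22a7 read 10.12, 10.22 and 10.66 in control livers and 11.61, 11.38 and 11.65 in tumor-bearing livers. Every tumor-bearing liver was above every control. The change was 1.21 ± 0.17 (SE; limma, adjusted p = 0.0419), and it rests on a single probe set. Leaving out any of the 6 liver arrays kept the size between 1.11 and 1.38 and gave adjusted p between 0.0604 and 0.145, when at most 1 gene of the whole array passed. The hepatocyte markers averaged 15.47 to 15.52 in control and 15.55 to 15.59 in tumor-bearing livers. The other anion carriers of the liver did not pass. Slc22a30 changed by -0.26 ± 0.18 (adjusted p = 0.404) and Slc22a26 by -0.03. Slc22a27 read 7.56, 8.23 and 5.27 in control livers against 8.16, 7.60 and 7.11, and Slc22a29 7.86, 9.16 and 7.27 against 9.41, 8.18 and 7.82, so for both the groups overlapped over a wide spread. Of the 5 anion carriers tested 3 were higher and 2 lower, with a median change of 0.37.

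Slco1a4 had the largest fall in size among the transporters tested in liver, and it did not pass. It read 9.67, 10.38 and 8.88 in control livers and 8.54, 8.53 and 8.15 in tumor-bearing livers, with no overlap. The change was -1.23 ± 0.38 (adjusted p = 0.123), a 2.35-fold lower mean, and without control 2, which read highest, it was -0.87. The controls differed among themselves by more than the whole range of the tumor-bearing livers. Slco1b2 read 13.93, 13.78 and 13.87 in tumor-bearing livers, just under its controls (-0.17 ± 0.10, adjusted p = 0.329). Its other probe sets tested in liver disagreed in direction. Probe set 1452494_s_at changed by -0.15 (adjusted p = 0.337) and 1427826_a_at by 0.19 (adjusted p = 0.25). Slco1a1 varied from 9.68 to 11.55 over the controls and from 9.97 to 11.32 over the tumor-bearing livers, a change of 0.04 ± 0.58. Of the 4 Slco genes tested 2 were higher and 2 lower.

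**Figure D4:**
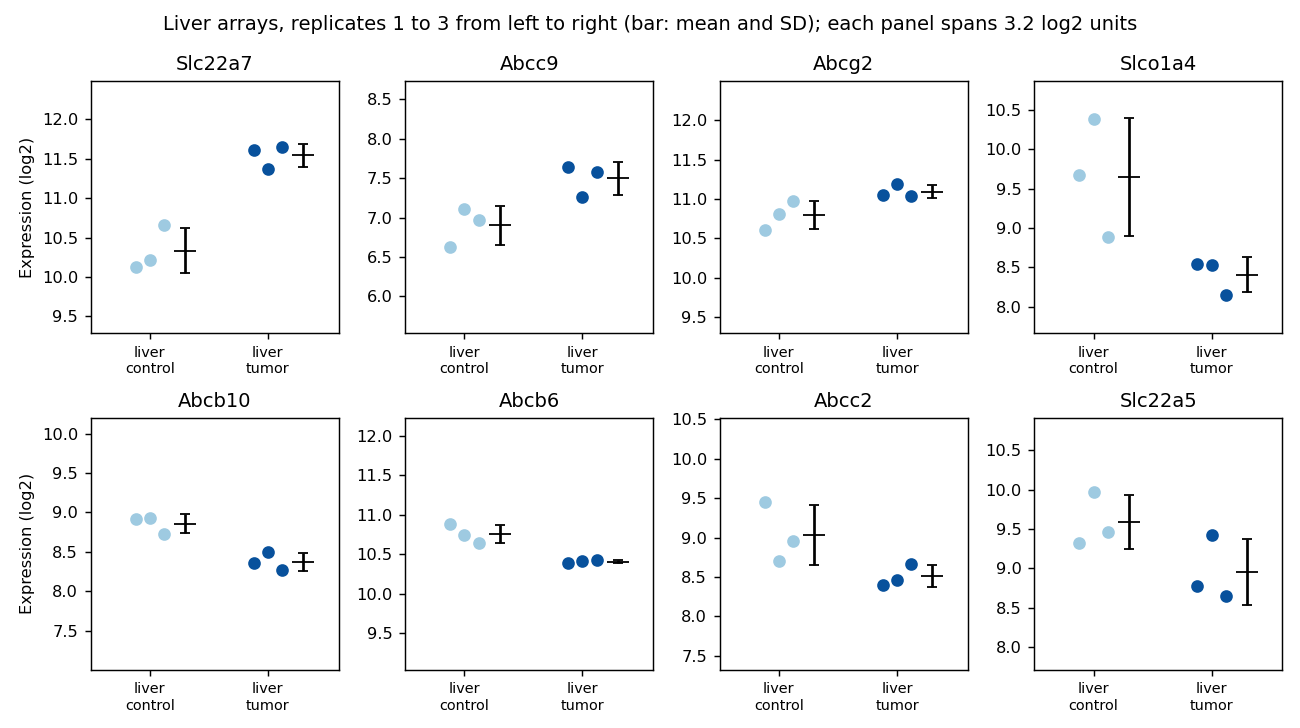
Log2 expression on each of the 6 liver arrays for 8 transporters, with mean and SD. Every panel spans 3.2 log2 units. The groups are separate for all panels other than Slc22a5, and the gap is widest for Slc22a7 (10.66 to 11.38).

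The organelle transporters of heme synthesis gave the next smallest adjusted p-values. Abcb10, a mitochondrial inner membrane transporter needed for hemoglobin synthesis, read 8.92, 8.93 and 8.72 in control livers and 8.36, 8.50 and 8.27 in tumor-bearing livers. Its change was -0.48 ± 0.10 (adjusted p = 0.0658). Abcb6 read 10.88, 10.74 and 10.65 against 10.38, 10.41 and 10.42, a change of -0.35 ± 0.08 (adjusted p = 0.0817). Neither gene's groups overlapped, and neither passed the threshold. A fit of all 12 arrays together, which takes the spread from both tissues, gave Abcb10 an adjusted p of 0.0246. It also gave Slco1a4 one of 0.0287, which is no support, since Slco1a4 read 2.04 to 2.16 on all lung arrays and their small spread entered the fit. Of the 8 erythroid marker genes listed, 4 were on the array, and Hba-a1 and Epb42 read 2.04 on every array. The list averaged 4.20 to 4.35 in control and 3.82 to 4.49 in tumor-bearing livers. Of the 4 genes, 0 were higher and 0 passed, and the pair at 2.04 could not differ. The part of the list in the Abcb10 and Abcb6 values was not tested. Of the 4 organelle Abcb genes 1 was higher and 3 lower, with a median of -0.24.

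Among the canalicular and basolateral pumps, Abcc2 read 9.45, 8.70 and 8.96 in control livers and 8.40, 8.47 and 8.67 in tumor-bearing livers (-0.52 ± 0.21, adjusted p = 0.185). The tumor-bearing values lay below all controls by a narrow margin. Abcb4 read 11.15, 11.53 and 11.10 in tumor-bearing livers, and its groups overlapped (-0.28 ± 0.15, adjusted p = 0.285). Abcc6 changed by 0.02 and Abcc3 by -0.01. Slc22a5 read 8.78, 9.43 and 8.65 in tumor-bearing livers, where tumor 2 lay within the control range (-0.64 ± 0.27, adjusted p = 0.205). Slc22a23 read 10.73, 10.85 and 10.71 in control livers and 9.97, 10.74 and 10.57 in tumor-bearing livers (-0.34 ± 0.21, adjusted p = 0.355). Abcd4, a lysosomal transporter of vitamin B12 metabolism, had separate groups but changed by only -0.22 (adjusted p = 0.347).

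All 4 Abcg genes measured in liver had a higher mean in the tumor-bearing group, with a median of 0.28, and none of them passed. Abcg2 read 10.61, 10.81 and 10.97 in control livers and 11.05, 11.19 and 11.03 in tumor-bearing livers (0.30 ± 0.11, adjusted p = 0.179). Abcg5 read 11.94, 11.98 and 11.79 in tumor-bearing livers, all above its controls (0.21 ± 0.08, adjusted p = 0.187). Its partner Abcg8, read from the other side of the interval printed above, was at 9.97, 9.75 and 9.42, and its groups overlapped (0.32 ± 0.16, adjusted p = 0.265). Abcg1 read 8.94, 8.69 and 8.61 in control and 8.86, 9.0 and 9.18 in tumor-bearing livers (0.27 ± 0.13, adjusted p = 0.248). Monocyte and macrophage genes, which mark cells known to express Abcg1, averaged 7.39 to 7.90 in control and 7.96 to 8.08 in tumor-bearing livers, 8 of 8 being higher and 0 passing the test. Their part in the value was not tested.

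Abcc9 (SUR2), the regulatory subunit of ATP-sensitive potassium channels of muscle and perivascular cells, read 6.63, 7.11 and 6.97 in control livers and 7.64, 7.26 and 7.58 in tumor-bearing livers. The groups did not overlap, and the change of 0.59 ± 0.17 did not pass (adjusted p = 0.108). Fibroblast and stellate cell genes averaged 7.48 to 7.56 in control and 7.68 to 8.08 in tumor-bearing livers, with 5 of 8 higher and 0 passing, and their part in the value was not tested. In lung Abcc9 read 4.28 on each control array and 4.31, 4.27 and 3.31 in tumor-bearing mice, near 1 repeated value on 5 of the 6 arrays and close above the filter, so its lung values carry little information.

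In lung no transporter of the 25 tested passed the threshold, and none had an unadjusted p under 0.05. Of all 7907 genes tested in lung, 0.734% passed (0.62% higher, 0.114% lower) and 13.2% had an unadjusted p under 0.05. The changes ran from -0.44 to 0.30, with 10 higher, 15 lower and a median of -0.13 against -0.01 over all genes. None reached 0.5 in size, which 11.3% of all genes did. Separate groups were seen for Slco2a1 (higher) and Slc22a18 (lower), 2 of 25, against 18.6% of all genes (8.99% higher, 9.57% lower). These figures do not show that the transporters were unaffected. SEs of 0.10 to 0.73 leave room for changes, and not only for small ones where the SE was large.

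Among the lung carriers, Slco2a1 read 12.97, 13.20 and 13.12 in control and 13.20, 13.27 and 13.32 in tumor-bearing lungs (0.17 ± 0.10, adjusted p = 0.538). The lowest tumor-bearing lung lay only just above the highest control. Slco3a1 read 10.20, 10.56 and 10.03 against 9.93, 10.11 and 10.05 (-0.23 ± 0.15, adjusted p = 0.591). Slc22a18 read 4.95, 4.95 and 5.13 against 4.92, 4.60 and 4.92, close above the filter value (-0.20 ± 0.13, adjusted p = 0.578). Slc22a23 read 9.72, 9.78 and 9.49 against 9.95, 9.56 and 9.87, a change of 0.13 ± 0.14 (adjusted p = 0.736), and of -0.03 without the 2 arrays rich in hepatocyte transcripts. Slc22a5 read 8.44, 9.27 and 9.06 in tumor-bearing lungs (-0.28 ± 0.23, adjusted p = 0.657).

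Of the multidrug resistance proteins in lung, Abcc1 read 8.13, 7.97 and 7.99 in control and 8.39, 8.01 and 8.48 in tumor-bearing mice (0.26 ± 0.15, adjusted p = 0.52). Abcc5 read 8.94, 9.44 and 9.30 against 8.85, 8.52 and 8.99, the largest fall of the transporters in lung, and its groups overlapped (-0.44 ± 0.18, adjusted p = 0.388). It was read by 7 probe sets, of which 5 were tested in lung. All 5 had a lower mean in tumor-bearing mice, by -0.16 to -1.30, and none passed. Abcc3 read 9.03, 8.76 and 8.72 against 8.85, 8.34 and 8.56 (-0.25 ± 0.16, adjusted p = 0.581). The P-glycoprotein gene Abcb1b read 4.90, 2.98 and 3.92 in control and 4.19, 3.93 and 4.34 in tumor-bearing lungs, which gave 0.22 ± 0.47, and -0.26 without control 2. The direction thus rested on that array, and it turned to -0.10 with array weights. Abcb4 read 4.26, 4.23 and 5.14 against 4.72, 4.83 and 4.74 (0.22 ± 0.26, adjusted p = 0.762). The groups of Abcb1a, the other P-glycoprotein gene of the mouse, overlapped too.

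The lipid transporters of the lung gave no call. Abca7 read 7.37, 7.52 and 6.98 in control and 7.70, 7.56 and 7.49 in tumor-bearing lungs (0.30 ± 0.16, adjusted p = 0.502). Its change was the highest among the 25, on arrays whose neutrophil genes averaged 9.87 to 10.71 against 5.55 to 6.65 in controls, and the part of such cells in it was not tested. Abca8b read 4.37, 4.01 and 4.19 against 3.63, 3.85 and 4.19 (-0.30 ± 0.17, adjusted p = 0.542). Abcg1 read 11.44, 11.50 and 11.56 against 11.92, 11.19 and 11.51, with the controls inside the range of the tumor-bearing lungs (0.04 ± 0.19, adjusted p = 0.954). Abcg2 changed by -0.17 ± 0.21. The lysosomal peptide transporter Abcb9 read 5.35 on each control array and 4.60, 4.82 and 5.35 in tumor-bearing lungs (-0.43 ± 0.20, adjusted p = 0.437). As 7 of the 12 arrays lay within 0.005 of 5.35 for this probe set, its values carry little information.

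Whether the change in liver differed from that in lung was tested on all 12 arrays for 37 transporters. Of these, 22 were measured in both tissues, and none of those passed. Slc22a7 passed (1.22 ± 0.19, adjusted p = 0.0159), against 1.55% of all 8433 genes tested. At an unadjusted p under 0.05 there were 6 transporters, against 17.2% of all genes. In lung Slc22a7 read 2.14 to 2.16 on all 6 arrays, also on the 2 rich in hepatocyte transcripts, so this value restates the liver change of 1.21 against a tissue in which the gene was not measured, and it is no separate evidence of a difference in response. The same limit holds for Slco1a4 below. For Abcc2, also not measured in lung, the liver change was -0.52. Its lung means were 3.28 in control and 3.83 in tumor-bearing mice, both under the filter value. Its difference below thus rests partly on lung values under the filter and is no separate evidence either. Without the 2 lung arrays rich in hepatocyte transcripts the adjusted p of Slc22a7 was 0.0819 and no transporter passed. Without liver control 3 both Slc22a7 and Slco1a4 passed. Slco1a4 differed by -1.29 ± 0.41 (adjusted p = 0.155), Abcc2 by -1.08 ± 0.38 (adjusted p = 0.188), and Abcc9 by 0.91 (adjusted p = 0.222). Abcb10 differed by -0.45 ± 0.16 (adjusted p = 0.183).

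Other probe sets of the same genes added detail that the brightest probe set did not show. When every probe set was fitted, 45 of the 93 were tested in liver and 1 passed, that of Slc22a7, against 1.54% of all probe sets tested. In lung 38 were tested and 0 passed, against 0.407% of all. The groups did not overlap for 13 of the 45 in liver, against 32.9% of all probe sets tested. In lung they did not overlap for 4 of the 38, against 18.2%. The probe sets named here, of Abca1 and Slco2a1, were picked after their values were seen. The brightest probe set of Abca1 read 12.61, 12.48 and 12.76 in control and 12.76, 12.87 and 12.72 in tumor-bearing livers. Probe set 1450392_at of the same gene read 7.86, 7.32 and 8.09 in control and 8.63, 8.49 and 8.59 in tumor-bearing livers (0.82 ± 0.20, adjusted p = 0.0906). In lung it read 5.94, 6.60 and 6.0 in control and 4.14, 5.76 and 4.49 in tumor-bearing mice (-1.39 ± 0.45, adjusted p = 0.302). It was thus above all controls in every tumor-bearing liver and below all controls in every tumor-bearing lung. The difference between the tissues was 2.20 ± 0.53 (adjusted p = 0.0784). Probe set 1421839_at moved alike, by 0.60 ± 0.20 in liver (adjusted p = 0.142) and -0.78 ± 0.26 in lung (adjusted p = 0.307), a difference of 1.38 ± 0.35 (adjusted p = 0.0854). The brightest probe set changed by 0.17 in liver and -0.15 in lung, the same signs at a smaller size, and none of these passed.

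The probe sets of Slco2a1 also differed from each other. Its probe set 1450032_at read 8.75, 8.55 and 8.33 in control and 9.21, 9.08 and 9.21 in tumor-bearing livers, with no overlap (0.62 ± 0.12, adjusted p = 0.0616). The brightest probe set of that gene changed by 0.01 ± 0.09 in the same livers. In lung 1450032_at read 11.19, 11.89 and 11.66 against 11.39, 11.68 and 11.09, with overlap, at a lower mean in tumor-bearing mice (-0.19), while the brightest probe set was higher (0.17). Probe sets of a gene can read different parts or forms of its transcript, and which parts these are was not examined.

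**Figure D5:**
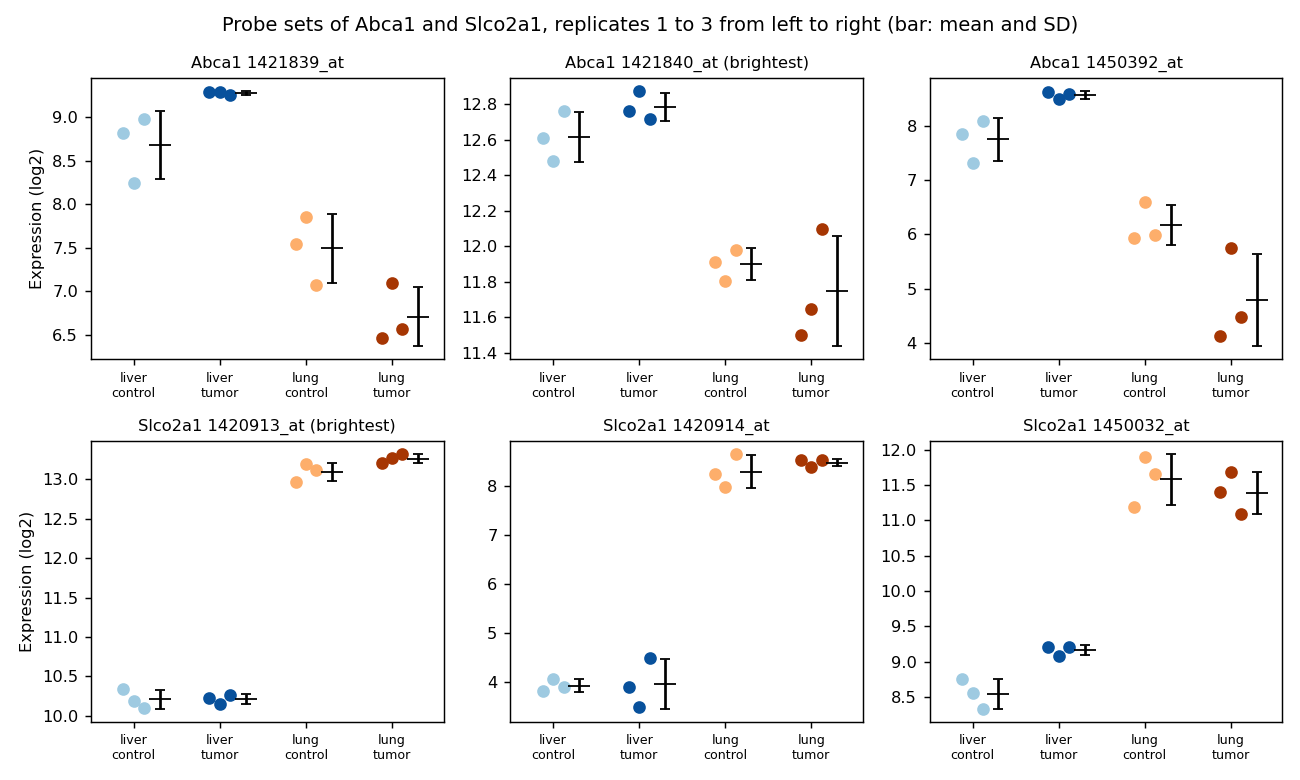
Log2 expression on all 12 arrays for the 3 probe sets of Abca1 and the 3 of Slco2a1, by group, with mean and SD. The vertical scales differ between panels. For Abca1 1450392_at the tumor-bearing livers (8.49 to 8.63) lie above their controls and the tumor-bearing lungs (4.14 to 5.76) below theirs.

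Transcription factors known to control these transporters, their partner proteins and related carriers were counted from lists. Of 24 nuclear receptors and other regulators tested in liver, 11 had a higher and 13 a lower mean, and 2 passed, both lower, where 1.23% of all genes passed and were lower. Nr0b2 (SHP), the bile acid-induced repressor, read 11.27, 11.18 and 11.64 in control and 9.88, 8.89 and 8.70 in tumor-bearing livers, and fell by 2.21 ± 0.34 (adjusted p = 0.0478). The aryl hydrocarbon receptor gene Ahr read 10.88, 10.98 and 10.92 against 10.04, 10.14 and 9.97, and fell by 0.88 ± 0.08 (adjusted p = 0.0323). For both genes the groups were far apart. Rxrb had the next smallest p-value of the list and did not pass (-0.56 ± 0.12, adjusted p = 0.0692). At an unadjusted p under 0.05 there were 7 of the 24, against 25.9% of all genes. The groups did not overlap for 7, against 33.1% of all genes. Of the receptors that regulate hepatic transporters, Nr1h4 (FXR) changed by -0.09, Nr1i3 (CAR) by -0.14 and Nr1i2 (PXR) by -0.60 (adjusted p = 0.178). In lung 17 regulators were tested and 0 passed, against 0.734% of all genes, the smallest p-values being those of Foxa1 (-0.37, adjusted p = 0.131) and Nfe2l2 (-0.26, adjusted p = 0.253). The change differed between tissues for 3 regulators, against 1.55% of all genes: Nr0b2, which read only 2.44 to 2.75 in lung, by -2.31 (adjusted p = 0.0179), Ahr by -1.22 (adjusted p = 0.0224), and Nfe2l2, the oxidative stress factor NRF2, by 0.64 (adjusted p = 0.0407).

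Related carriers and partners gave no call in either tissue. A list of other solute carriers, pumps and lipid-handling proteins had 14 genes tested in liver, 4 higher and 10 lower. The smallest p-values were those of the nucleoside carrier Slc29a1 (-0.45, adjusted p = 0.0834) and the phosphate and urate carrier Slc17a1 (-0.33, adjusted p = 0.102). In lung 9 were tested, 3 higher and 6 lower, led by the lipoprotein receptor Scarb1 (0.30, adjusted p = 0.26) and the lactate carrier Slc16a1 (0.28, adjusted p = 0.316). Of 18 partner proteins, such as scaffolds and lipid acceptors, 11 were higher and 7 lower in liver, led by the membrane-cytoskeleton linker Msn (0.42, adjusted p = 0.0953) and the scaffold Pdzk1 (-0.46, adjusted p = 0.105). In lung 8 of 16 were higher, led by Pex19 (0.50, adjusted p = 0.182) and Slc9a3r1 (0.37, adjusted p = 0.255). The soluble ABC proteins Abce1, Abcf1, Abcf2 and Abcf3, which act in translation rather than transport, were all lower in mean in both tissues, without passing. In liver Abcf1 changed by -0.52 (adjusted p = 0.0692) and Abcf3 by -0.51 (adjusted p = 0.139), and in lung Abcf2 by -0.43 (adjusted p = 0.343).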

How the data were processed

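The authors deposited 1 table of log2 expression values for 12 Affymetrix arrays, made with GCRMA, per the submitters' processing notes, which also name limma. The sources used here give no versions, settings or batches. GCRMA models background from each probe's sequence before quantile normalization. The lowest value was 2.044 on every array, and a level near it is no measurement. Probe sets were named through GEO's platform annotation, and those with several genes or none were left out. A gene's brightest probe set by its 12-array mean stood for the gene. The filter kept genes that exceeded 4 (log2) on 3 or more of the fitted arrays. They were compared with limma 3.58.1 in R 4.3.3 (lmFit and eBayes), with Benjamini-Hochberg adjustment over all genes tested and a threshold of 0.05, after the script was tested on simulated data. All adjusted p-values come from limma. Fold changes are 2 to the power of a log2 difference.

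The transporters and the lists of roles, regulators, partners and markers were chosen with earlier results of these data known. Transporters named with every array were those that passed or were among the 6 smallest p-values in each direction in a tissue. Those with separate groups and a change of at least 0.5, or the highest mean of a role list, were named too. From other lists, genes that passed or had the 2 smallest p-values were named. The receptors Nr1h4, Nr1i3, Nr1i2 and Rxrb, and transporters given by their counts or overlaps, were added after their values were seen. Promoter sequences are RefSeq's for GRCm38.p6, with 46 of 59 transporters matched. Alternatives changed the filter, the probe set chosen, the scaling, the array weights, the arrays fitted, the threshold and the replicate block. The 1 probe set shared by Slc22a29 and Slc22a30 was left out of the tests.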

Additional observations from a re-analysis of the deposited data

Results flagged for a closer look

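The change of Slc22a7 in tumor-bearing mice differed between liver and lung by 1.22 (log2; limma interaction, adjusted p = 0.0159), with 3 of 3 tumor-bearing livers above all controls, while lung read 2.14 to 2.16 throughout. As the gene was not measured in lung, this value restates the liver change of 1.21 and is no separate evidence. Probe set 1450392_at of Abca1 moved up in 3 of 3 tumor-bearing livers, by 0.82, and down in 3 of 3 tumor-bearing lungs, by -1.39. The limma test of that difference did not pass the threshold (adjusted p = 0.0784). Groups did not overlap for 32.9% of all probe sets tested in liver and 18.2% of those in lung.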

How the results depend on the processing

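For the 25 transporter results named with a test, 408 values were recomputed under the alternatives. Of these, 394 kept their direction and their side of the threshold, 9 lost the call, 2 gained it and 3 changed sign. All 9 losses were those of Slc22a7, at 8 of its 16 values in liver and 1 of its 22 in the difference. The other results had no call to lose. The sign changes were Abcb1b in lung, at -0.10 with array weights and from -0.26 (without lung control 2) to 0.33 when single arrays were left out, and Slc22a23 in lung, at -0.032 without both hepatocyte-rich lung arrays. The cause was not tested. In liver, 1 transporter passed as reported, 0 without the filter on low values, 3 with all 12 arrays in 1 fit (Slc22a7, Abcb10 and Slco1a4), 3 at an adjusted p under 0.1, 0 at one under 0.01, and 0 to 0 when single arrays were left out. In lung 0 passed under every alternative run. For the difference between tissues 1 passed as reported, 1 to 2 without single arrays, 0 without both hepatocyte-rich lung arrays and 0 at an adjusted p under 0.01. Between control organs 32 passed, and 21 to 31 without single arrays. Deviations of tumor-bearing and control samples of the same number had correlations of mixed sign. They were -0.03, 0.12 and -0.03 in liver and -0.01, 0.20 and -0.22 in lung. In both tissues only number 2 was positive and matched its own number best. Those of liver and lung of the same number were 0.10, 0.03 and 0.07 in controls and 0.09, 0.02 and 0.09 in tumor-bearing mice. The liver and lung values were all positive, with the sample's own number the best match in 5 of 6. Not every pair exceeded 0.1, so the numbers were not taken to pair samples, and the last values are a hint from the data, not the design. With the replicate number as a block 0 transporters passed in liver, where 0 genes of the array did, 0 in lung, 1 in the difference and 33 between control organs. In the first 3 of these fits the block joined tumor-bearing and control mice of the same number. Those are different mice, so these fits are no test of pairing liver and lung by mouse. Levels near 2.044 have no order, so a change confined to that range could not be seen.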

Other observations

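The probe set shared by Slc22a29 and Slc22a30, 1451635_at, read 8.26, 9.42 and 7.79 in control livers and 9.49, 8.0 and 8.10 in tumor-bearing livers, and 2.04 on the lung arrays. The probe set used for Slc22a29 took the same order over the arrays of each group, with 7.86, 9.16 and 7.27 in control and 9.41, 8.18 and 7.82 in tumor-bearing livers, except that the last 2 tumor-bearing livers changed places. The brightest probe set of Slc22a30 did not, with 12.64, 12.11 and 12.66 in control livers, where the others were highest in control 2. A faint probe set of Slco1b2, 1427825_at, read 2.04, 2.04 and 2.28 in control livers and 3.45, 4.37 and 3.11 in tumor-bearing livers. It was under the filter and was not tested, and the brightest probe set of the gene was lower in mean in the same livers. These probe sets were picked after their values were seen.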
